A study of Chlorocebus aethiops with 3 samples.

Results

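The messages described here encode the cytoskeleton of COS-7 cells: actins and the proteins that bind, cut, cap and branch actin filaments, tubulins and stathmin, and the intermediate filament proteins vimentin, keratin 8, keratin 18 and the lamins. They were given as a list of 52 human RefSeq mRNA accessions. In the scanner tables used here 43 of them had spots, 92 spots of 83 probes among 43376 spots of 41000 probes in all. Each accession is represented by its brightest probe, the one with the highest mean log2 signal of red and green, and all 43 of these probes could be tested, beside 18143 tested probes on the whole array. The tables pair a probe with an accession and not with a gene, so the gene names and roles below are background knowledge of RefSeq, and the accession remains the identity of what was measured. The 9 accessions without spots were those of TPM2, TAGLN, MYL6, MYL9, VCL, ARPC2, ACTR2, 1 of 2 STMN1 accessions (NM_005563) and 1 of 2 LMNA accessions (NM_170707).

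COS-7 is a fibroblast-like line from African green monkey kidney. Cells of the knockdown group received siRNAs against the coding region of human RNA helicase A (RHA, encoded by DHX9), a DEAH-box helicase, at a final 0.5 nM. Those of the control group received scrambled siRNA, and both were transfected again later. Incubations were 4 h without serum, 24 h with serum and 24 h for the second transfection. Fetal bovine serum was used at 10%. Cytoplasmic lysates were spun through 15% to 45% sucrose gradients and the fractions of the heavy polysomes, where mRNAs bound by many ribosomes sediment, were pooled. Each of 3 Agilent 2-colour arrays, 1 per biological replicate, carried control RNA in Cy3 and knockdown RNA in Cy5. No array had the dyes swapped and all 3 lie on 1 slide, so an effect of the knockdown, of the dye and of the slide cannot be told apart. The probes were designed on human sequence and hybridised with monkey RNA. A ratio gives the amount of a message in heavy polysomes relative to other messages there, so more ribosomes per message and more of the message in the cell cannot be told apart.

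Actin monomers add to the ends of filaments. Profilin and the beta thymosins bind monomers, the Arp2/3 complex starts branches, capping protein blocks the fast-growing end, and cofilin severs old filaments. Tropomyosins and transgelins lie along filaments, actinins and filamins crosslink them, and non-muscle myosin pulls on them. Microtubules are built from dimers of alpha and beta tubulin, stathmin sequesters those dimers, and gamma tubulin nucleates new microtubules. Tubulin messages are also known for a feedback in which free tubulin dimers lead to decay of tubulin mRNA while it is being translated, through the first residues of the nascent chain. Keratin 8 and keratin 18 pair with each other in simple epithelia, vimentin forms the filaments of mesenchymal cells, and lamins line the nucleus.

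The members gave bright signals on arrays that were dim overall. Between 37.5% and 50.7% of all probes were well above background in Cy3 and between 45.5% and 53.1% in Cy5. Control RNA of replicates 1, 2 and 3 gave a signal well above background for 40, 41 and 43 of the 43 members, and knockdown RNA did so for all 43 on every array. Vimentin, a mesenchymal marker, and keratins 8 and 18, markers of simple epithelia, were measured by their brightest probes. These were well above background in both channels of all 3 arrays. The other KRT8 probe was well above background in neither channel of any array. Other cell type markers were not analysed here, since no gene table was used. The RHA message itself was not called lower: its brighter tested probe, A_23_P97749, had log2 ratios of -0.041, -0.20 and -0.60 and a limma adjusted p of 0.217, and its other tested probe, A_24_P36847, had -0.12, -0.12 and -0.76 with 0.210. With each array centred on its median in place of loess these probes had means of 0.26 and 0.068. The groups are named after their labels.

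In heavy polysomes of knockdown cells, 5 of the 43 cytoskeleton messages rose and 12 fell. The 5 that rose were 2 alpha tubulins (TUBA1A and TUBA1B), stathmin (STMN1), thymosin beta 10 (TMSB10) and a capping protein subunit (CAPZA1). The 12 that fell were cofilin (CFL1), 3 Arp2/3 subunits (ARPC5, ARPC3 and ACTR3), TPM4, TAGLN2, CAPZB, keratins 8 and 18, LMNA and 2 beta tubulins (TUBB4B and TUBB3). These 12 calls were made with loess: with each array centred on its median in its place, 0 of the 12 passed, their means ran from -0.65 for ARPC5 to 0.19 for TUBB3 and their adjusted p from 0.0715 for TPM4 to 0.885 for TUBB4B. The 5 risen messages kept their calls there, with means from 1.40 to 2.19. With Agilent's processed ratio, TUBA1B and CAPZA1 lost theirs. A message was called when its limma adjusted p, over all tested probes, was under 0.05. The 17 called members are 39.5% of 43, where 18.4% of all tested probes were called. Members enter by their brightest probe only, whereas all tested probes include dimmer ones of the same accession, so the shares are unlike in this. For rises the shares were 11.6% of members and 9.72% of all tested probes, and for falls 27.9% and 8.65%. The members were mostly bright, and brightness moved with the share called: 28 of the 43 lay in the brightest 20% of the tested probes, where 36.6% of all probes were called (18.4% risen and 18.3% fallen), and 15 of these 28 members were called, 4 risen and 11 fallen. The part of brightness in the members' count was not tested. By at least 2-fold, 2 members rose and 5 fell, beside 2.74% and 1.84% of all tested probes. The median log2 ratio of the members was -0.18, with array medians of -0.13, -0.19 and -0.17, beside 0.018 over all tested probes, a difference of -0.20. That difference turned to 0.060 with median centring, where the members' median was 0.36 and that of all tested probes 0.30. Centring on probes well above background only shifts all probes of an array by another single amount, so it must give the same difference.

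The calls depended on replicate 2. Without it limma called 0 of the 43 members, as it called 0 probes of the whole array, with 20 members at an unadjusted p under 0.05. All 17 called members kept their sign there, which was fixed in advance because each had 1 sign on every array. Without replicate 1 it called 4 risen and 11 fallen members, and without replicate 3 it called 5 and 12. TUBA1B and CAPZB lost their calls without replicate 1, with mean log2 ratios of 0.49 and -0.67. KRT18, LMNA and TUBB3 lost theirs without replicate 3, with -0.75, -0.59 and -0.54. Over the 3 arrays 29 of the 43 members, or 67.4%, had 1 sign on every array, as did 58.4% of the tested probes with 3 values. These 29 include all 17 called members. With no filter on dim probes, TUBA1A, TUBA1B, CAPZB, KRT8 and KRT18 lost their calls, with limma adjusted p from 0.0571 to 0.112. That setting both fits the variances and adjusts p over more probes.

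**Figure D1:**
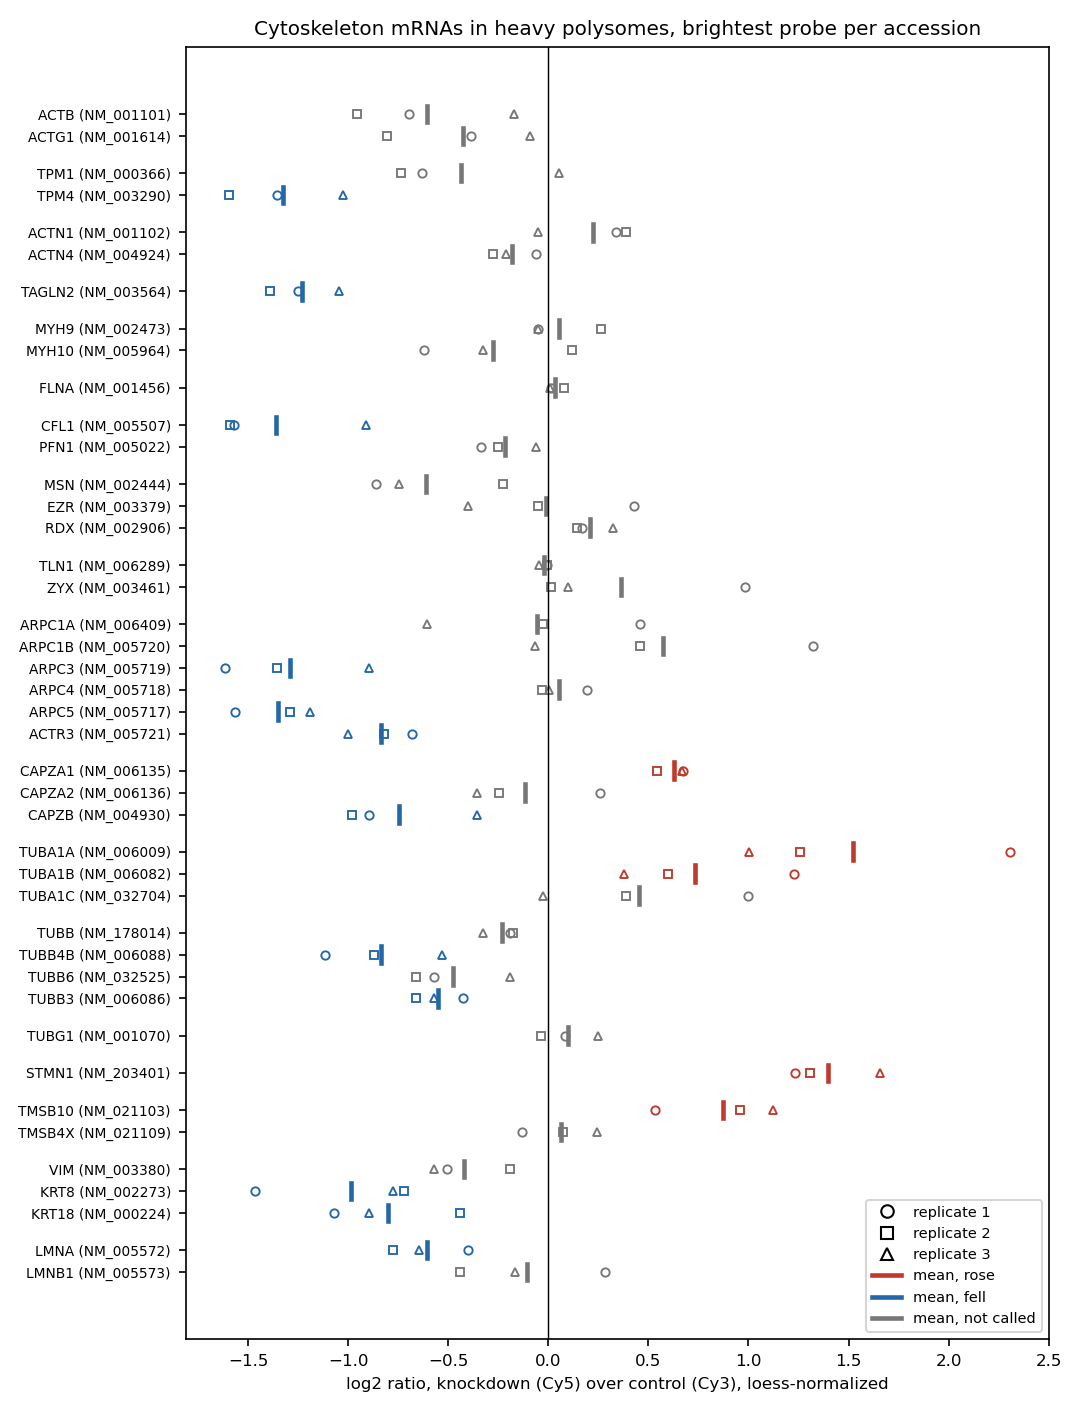
Log2 ratio of knockdown over control on the x axis for 42 cytoskeleton accessions, grouped by protein family, with a symbol for each replicate and a bar at the mean of 3 arrays. The alpha tubulins, STMN1, TMSB10 and CAPZA1 lie to the right of 0 and the beta tubulins, CFL1, TPM4, TAGLN2, ARPC3 and ARPC5 to the left; with arrays centred on their medians, all 4 beta tubulins lie to the right.

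The 2 cytoplasmic actins were not called. Beta actin (ACTB, NM_001101), the brightest probe of the family, gave log2 ratios on replicates 1, 2 and 3 of -0.70, -0.95 and -0.17. All 3 values were below 0, least so on replicate 3, and their mean of -0.61 ± 0.40 (SD, n = 3) missed the threshold at a limma adjusted p of 0.0663, while arrays centred on their medians gave a mean of 0.46. Without replicate 3 ACTB was called lower, with a mean of -0.82. The other 3 ACTB probes had means of -0.55, -0.55 and -0.38, none of them called. Gamma actin (ACTG1, NM_001614) had -0.39, -0.81 and -0.093, averaging -0.43 ± 0.36 (SD, n = 3) that turned to 0.56 with median centring. Its other 2 probes pointed the other way, with 1.95, -0.023 and 0.52 for A_23_P44037 and 1.81, -0.034 and 0.44 for A_32_P156963. Replicate 1 was far above the other arrays for these 2 probes, and neither was called. Actin messages resemble each other closely and the probe sequences were not used here, so signal from one actin on the probe of another was not tested.

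Among the proteins that bind actin monomers or sever filaments, thymosin beta 10 rose, cofilin fell, and profilin and thymosin beta 4 were not called. TMSB10 (NM_021103) had normalized signals of 8258, 5428 and 15037 in the control channel and 11950, 10560 and 32764 in the knockdown channel of replicates 1, 2 and 3. The knockdown signal was the higher on every array. Its log2 ratios of 0.53, 0.96 and 1.12 averaged 0.87 ± 0.30 (SD, n = 3), a 1.83-fold rise with a 95% interval of the log2 ratio from 0.51 to 1.23 and a limma adjusted p of 0.0233. Its close relative TMSB4X (NM_021109) had -0.13, 0.073 and 0.25, values on either side of 0. With median centring TMSB4X was called higher, with a mean of 0.81 at a limma adjusted p of 0.0452.

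Cofilin (CFL1, NM_005507) had the lowest mean of all 43 members. Its signals were 3585, 3281 and 11666 in control and 1206, 1089 and 6201 in knockdown RNA, lower in knockdown on every array. The log2 ratios were -1.57, -1.59 and -0.91 and averaged -1.36 ± 0.39 (SD, n = 3), or 0.390 times control, at a limma adjusted p of 0.0162, and median centring gave -0.55, not called. A further CFL1 probe, A_32_P148710, also fell, with -0.84, -0.89 and -0.79. Profilin (PFN1, NM_005022) had -0.34, -0.25 and -0.060, a mean of -0.22 with a 95% interval from -0.48 to 0.052, and median centring gave 0.42.

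Of the proteins that lie along actin filaments, tropomyosin 4 and transgelin 2 fell. TPM4 (NM_003290) went from signals of 3500, 3759 and 14368 to 1368, 1244 and 7069. Knockdown was the lower channel on all 3 arrays, with log2 ratios of -1.36, -1.60 and -1.02, averaging -1.32 ± 0.29 (SD, n = 3), or 0.399 times control, and a limma adjusted p of 0.0152. The other 3 TPM4 probes fell as well, with means of -1.03, -0.75 and -0.72. TAGLN2 (NM_003564) had -1.25, -1.39 and -1.05, a narrow spread around a mean of -1.23 ± 0.17 (SD, n = 3), or 0.427 times control, with a limma adjusted p of 0.0141. Its further probe, A_32_P194848, fell with a mean of -0.83. With median centring TPM4 and TAGLN2 had -0.50 and -0.37 and were not called. TPM1 (NM_000366), a tropomyosin of another gene, had -0.63, -0.73 and 0.056 and was not called with 3 arrays, but it was called lower without replicate 3, with a mean of -0.68, and had 0.24 with median centring.

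In the main setting, the crosslinkers and myosin heavy chains described here gave small ratios and 0 calls among 5 members. Actinin 1 (ACTN1, NM_001102), the brightest crosslinker of its family, had 0.34, 0.39 and -0.051, averaging 0.23 ± 0.24 (SD, n = 3) with a 95% interval from -0.095 to 0.55. The heavy chain of non-muscle myosin IIA (MYH9, NM_002473) had -0.052, 0.27 and -0.053. Replicate 3 was the lowest array for ACTN1, and replicate 2 the highest for MYH9. The other 3, ACTN4, MYH10 and FLNA, had means of -0.18, -0.28 and 0.034. Their probes were dim, and the offset of the background correction pulls ratios of dim probes toward 0. With an offset of 0 these 3 had -0.36, -0.41 and 0.16, and with Agilent's processed ratio -0.48, -0.61 and 0.74. None of them was called there. Median centring gave 0.10, 0.096 and 0.10, so their small ratios depended on the processing. Knockdown RNA gave FLNA a signal well above background on all 3 arrays, and control RNA on 1.

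Proteins that tie actin to the membrane or to adhesions were likewise not called. Moesin (MSN, NM_002444), 1 of the 3 ERM proteins that anchor filaments to the plasma membrane, came closest, with -0.86, -0.22 and -0.74, averaging -0.61 ± 0.34 (SD, n = 3) and a limma adjusted p of 0.0504. MSN was called lower in 6 of 17 alternatives, but median centring gave -0.0014. Replicate 2 was the array nearest 0. Of its other 3 probes A_24_P186370 was called lower, with -0.66, -0.39 and -0.52, and the remaining 2 had means of -0.29 and 0.019. Ezrin (EZR, NM_003379) had 0.43, -0.054 and -0.40, which spread over both sides of 0, and radixin (RDX, NM_002906) had 0.17, 0.14 and 0.32. RDX was called higher in 2 of 15 alternatives. These were Agilent's processed ratio, with a mean of 0.97, and a variance model with an intensity trend. Zyxin (ZYX, NM_003461), a focal adhesion protein, had 0.98 on replicate 1 but 0.016 and 0.099 on the others, and talin 1 (TLN1, NM_006289) stayed between -0.046 and -0.0052.

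The Arp2/3 complex split into subunits whose messages fell and subunits that were not called. Of its 8 listed subunits 6 had probes, and 3 fell. ARPC5 (NM_005717) had signals of 1057, 878 and 4288 in control and 357, 359 and 1881 in knockdown RNA. Its log2 ratios of -1.57, -1.29 and -1.19 averaged -1.35 ± 0.19 (SD, n = 3), or 0.393 times control, at a limma adjusted p of 0.0141. ARPC3 (NM_005719) had -1.62, -1.36 and -0.90, averaging -1.29 ± 0.36 (SD, n = 3), or 0.409 times control, at 0.0162. All 3 arrays were below 0 for both, and replicate 3 was the nearest to it. With median centring they had -0.65 and -0.57 and were not called.

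The actin-related subunit ARP3 (ACTR3, NM_005721) fell less, with -0.68, -0.82 and -0.999, averaging -0.83 ± 0.16 (SD, n = 3), but -0.18 at a limma adjusted p of 0.579 with median centring. Of its other 2 probes A_24_P231513 fell with a mean of -0.92 and A_23_P108785 had -0.18 and was not called. The other 3 subunits were not called and their arrays disagreed in sign. ARPC1A (NM_006409) had 0.46, -0.026 and -0.61, ARPC1B (NM_005720) had 1.32, 0.46 and -0.065, and ARPC4 (NM_005718) stayed between -0.033 and 0.19. ARPC1B was called higher in 2 of 16 alternatives. For ARPC1A and ARPC1B, which are alternative forms of 1 subunit, replicate 1 was the highest and replicate 3 the lowest array.

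The 3 messages of capping protein, a dimer of an alpha and a beta subunit, went different ways. CAPZA1 (NM_006135), an alpha subunit, had 0.67, 0.55 and 0.67, the 3 arrays nearly alike, with a mean of 0.63 ± 0.072 (SD, n = 3), a 1.55-fold rise at a limma adjusted p of 0.0208. Its other probe, A_24_P379379, had -0.35, -0.45 and -0.27, below 0 on every array and not called, so the rise rests on 1 of 2 probes, and the mean of both was 0.14. CAPZA2 (NM_006136), the other alpha subunit, had 0.26, -0.25 and -0.36. The beta subunit CAPZB (NM_004930) fell with -0.90, -0.98 and -0.36, averaging -0.75 ± 0.34 (SD, n = 3) at a limma adjusted p of 0.0325, with replicate 3 the nearest to 0, and had -0.22, not called, with median centring.

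**Figure D2:**
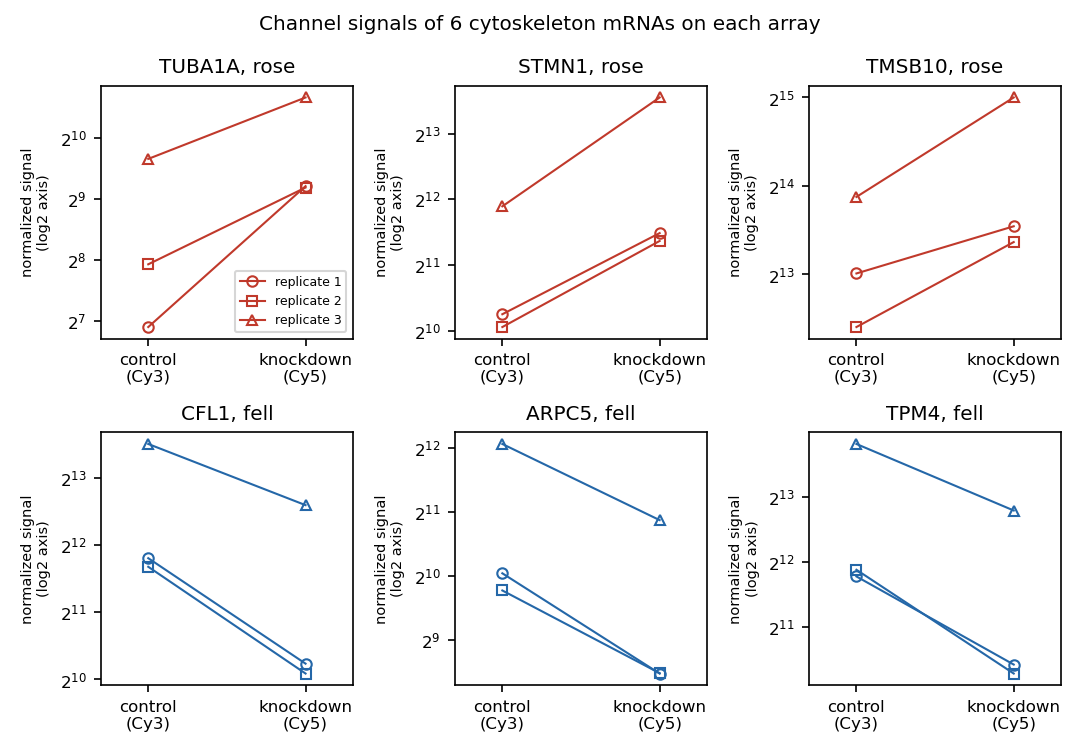
Loess-normalized signal of the control (Cy3) and knockdown (Cy5) channel on a log2 axis for TUBA1A, STMN1, TMSB10, CFL1, ARPC5 and TPM4, with a line for each replicate. Within every array the line rises for TUBA1A, STMN1 and TMSB10 and falls for CFL1, ARPC5 and TPM4, while replicate 3 is the brightest array in all 6 panels.

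Of the 3 alpha tubulin messages 2 rose and 0 fell, and of the 4 beta tubulin messages 0 rose and 2 fell. The calls of the 2 beta tubulins were lost with median centring and with centring on probes well above background, where TUBB4B had -0.27 and TUBB3 -0.13 at limma adjusted p of 0.312 and 0.470. Other settings removed them too: TUBB4B kept its call in 12 of 17 alternatives and TUBB3 in 10. The median log2 ratio of the 3 alpha tubulins was 1.23, 0.60 and 0.38 on replicates 1, 2 and 3, and that of the 4 beta tubulins was -0.50, -0.66 and -0.43. The alpha median was the higher on each array, most of all on replicate 1. The difference between the subfamilies was noticed in these values and was not tested, and an exact sign-flip test of 3 arrays cannot go below p = 0.25. With median centring the 4 beta tubulins had means from 0.050 to 0.48 and the 3 alpha tubulins from 1.35 to 2.14.

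TUBA1A (NM_006009) had the highest mean of all 43 members. Its signals were 120, 244 and 806 in control and 592, 582 and 1617 in knockdown RNA, higher in knockdown on every array. The log2 ratios of 2.30, 1.26 and 1.00 averaged 1.52 ± 0.69 (SD, n = 3), a 2.87-fold rise with a 95% interval of the log2 ratio from 0.86 to 2.19 and a limma adjusted p of 0.0251. TUBA1B (NM_006082), the brightest alpha tubulin probe, had 1.23, 0.60 and 0.38, averaging 0.73 ± 0.44 (SD, n = 3), or 1.66-fold, at a limma adjusted p of 0.0497, just inside the threshold. For both messages replicate 1 was the highest array. For TUBA1A the knockdown signals of replicates 1 and 2 were alike, at 592 and 582. The control signal was lower on replicate 1, at 120 against 244.

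TUBA1C (NM_032704) had 4 probes that disagreed. Its brightest, A_23_P128154, had 1.00, 0.39 and -0.028, averaging 0.45 ± 0.52 (SD, n = 3) that was not called. A_24_P58529 rose with 2.68, 1.41 and 1.16, and A_23_P128161 rose with 1.49, 1.03 and 0.95. A_24_P188071 had -0.57, -0.11 and -0.25, below 0 on every array and not called. Over its 4 probes the mean of TUBA1C was 0.76 and called higher. The alpha tubulin genes are close copies of each other, so a probe listed under one accession may also bind others, which was not tested.

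Of the beta tubulins, TUBB4B (NM_006088) had signals of 9320, 6492 and 24730 in control and 4302, 3556 and 17120 in knockdown RNA, lower in knockdown on all 3 arrays. It fell with -1.12, -0.87 and -0.53, averaging -0.84 ± 0.29 (SD, n = 3), or 0.559 times control, at a limma adjusted p of 0.0239, but had 0.050 with median centring, and its other probe had a mean of -0.33 and was not called. TUBB3 (NM_006086), known as the tubulin of neurons and present in many cell lines, fell with -0.43, -0.66 and -0.57, averaging -0.55 ± 0.12 (SD, n = 3) that became 0.19 with median centring. Its other probe, A_23_P77493, fell further, with -1.25, -0.98 and -1.08. TUBB6 (NM_032525) had -0.57, -0.66 and -0.19 and missed the threshold at a limma adjusted p of 0.0613, while its other probe fell with a mean of -0.73, and without replicate 3 the brightest probe was called too, with -0.62. The mean of TUBB6 with median centring was 0.37.

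TUBB (NM_178014), the remaining beta tubulin, had -0.19, -0.18 and -0.32, below 0 on every array by a small margin and not called, and 0.48 with median centring. Gamma tubulin (TUBG1, NM_001070) had 0.085, -0.035 and 0.25 and was not called either. Stathmin, which binds free tubulin dimers and promotes microtubule disassembly, rose. STMN1 (NM_203401) had signals of 1220, 1066 and 3805 in control and 2870, 2641 and 11989 in knockdown RNA. Every array was higher in knockdown, with log2 ratios of 1.23, 1.31 and 1.66, averaging 1.40 ± 0.22 (SD, n = 3), or 2.64-fold, a 95% interval from 1.09 to 1.71 and a limma adjusted p of 0.0141. The accession has 1 probe, so no other probe bears on the value.

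Both keratin messages fell with loess, though not under either way of centring, and vimentin was not called. KRT8 (NM_002273) had signals of 2309, 1252 and 4189 in control and 837, 760 and 2444 in knockdown RNA, lower on every array. It fell with -1.46, -0.72 and -0.78, averaging -0.99 ± 0.41 (SD, n = 3), or 0.504 times control, at a limma adjusted p of 0.0261. Its partner KRT18 (NM_000224) fell with -1.07, -0.44 and -0.89, averaging -0.80 ± 0.32 (SD, n = 3) at 0.0281. Median centring gave KRT8 -0.25 and KRT18 -0.085, at limma adjusted p of 0.529 and 0.844, and centring on probes well above background gave -0.57 and -0.41, at 0.0791 and 0.168. Replicate 1 was the lowest array for both keratins and replicate 2 the nearest to 0. The other KRT8 probe, A_24_P67395, was too dim to be tested and had a mean of 0.011. Of the other 2 KRT18 probes A_24_P42136 fell with a mean of -0.54, and A_23_P99320 had -0.078 and was not called. Vimentin (VIM, NM_003380) had -0.50, -0.19 and -0.57, averaging -0.42 ± 0.20 (SD, n = 3) that missed the threshold at a limma adjusted p of 0.0651 and was 0.48 with median centring.

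Of the lamins, the accession of LMNA (NM_005572), whose gene encodes lamins A and C, fell with -0.40, -0.78 and -0.65, averaging -0.61 ± 0.19 (SD, n = 3), or 0.656 times control, at a limma adjusted p of 0.0289, but had 0.11 with median centring. Its other probe had a mean of -0.23 and was not called, and the mean of both probes, -0.42, missed the threshold. Lamin B1 (LMNB1, NM_005573) had 0.29, -0.44 and -0.17, with arrays on either side of 0.

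Where an accession had several tested probes they mostly lay on the same side of 0. Of 24 accessions with at least 2 tested probes, 17 had all of them on 1 side and 7 had probes on both sides. For 9 accessions the brightest probe was called and a further one was tested. The next brightest was called the same way in 6, which were TPM4, TAGLN2, CFL1, ACTR3, TUBB3 and KRT18. It was not called in the other 3, with the same sign for TUBB4B and LMNA and the opposite sign for CAPZA1. In 3 accessions, MSN, TUBA1C and TUBB6, a probe other than the brightest was called and the brightest was not. No accession had called probes in both directions. With the next brightest probe in place of the brightest, 0 rose and 7 fell among these 24. Of the risen members only CAPZA1 is among them, since TUBA1A, TUBA1B, STMN1 and TMSB10 have 1 probe each. No rise was therefore called by a further probe of its accession. Probes of an accession share the RNA and the array and may overlap, so they are not replicates.

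**Figure D3:**
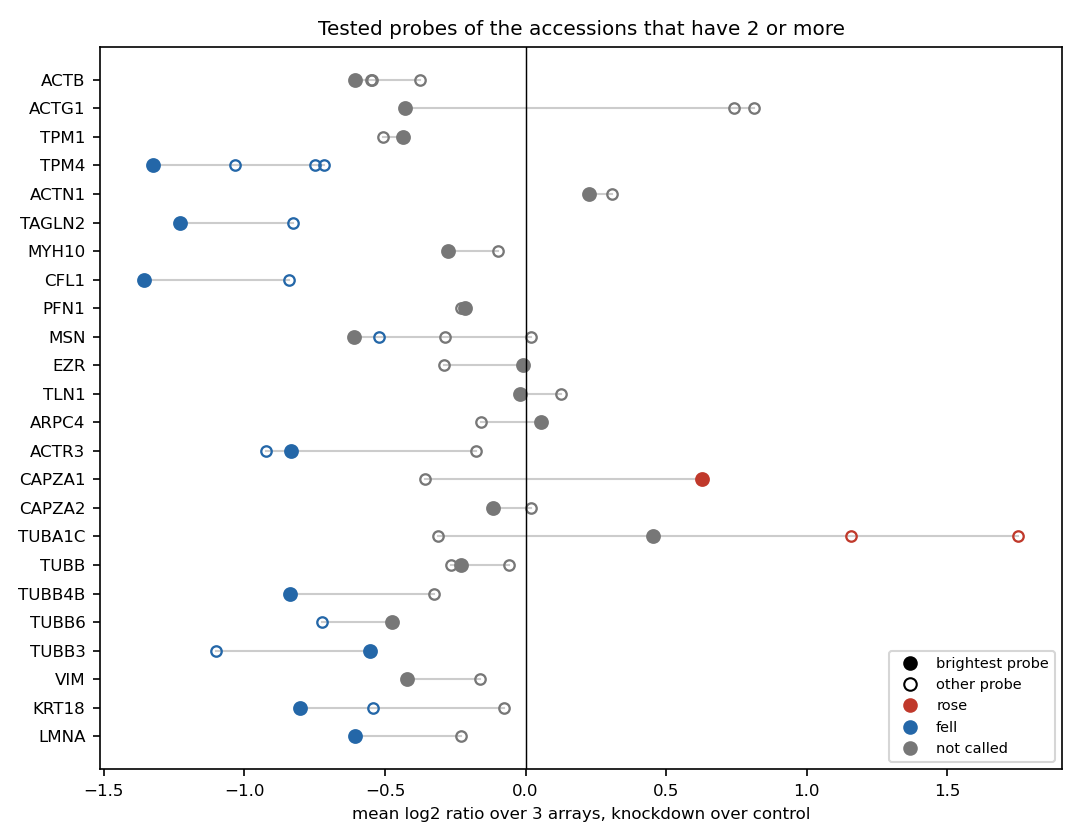
Mean log2 ratio over 3 arrays on the x axis for each tested probe of the 24 accessions with at least 2, with the brightest probe filled and the others open, coloured by call. All 4 TPM4 probes are called lower, whereas the probes of TUBA1C run from -0.31 to 1.75 and those of ACTG1 from -0.43 to 0.81.

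The 12 falls depended on where 0 was placed, in their calls and, for 3 of them, in their sign. Loess sets 0 separately at each brightness, whereas median centring uses a single value per array and moved the median of all tested probes from 0.018 to 0.30. Under it 7 members rose and 0 fell, with 17 of the 43 at an unadjusted p under 0.05, and over all tested probes 98.4% of calls were upward. The 5 risen members kept their calls, and TMSB4X and TUBA1C were called higher as well. Of the 12 fallen ones 9 kept a mean below 0 without passing the threshold, and LMNA, TUBB3 and TUBB4B had means of 0.11, 0.19 and 0.050. Set against the shifted median of all tested probes, all 17 called members lay on the side on which loess put them. CFL1, ARPC5, ARPC3 and TPM4 were then 0.85, 0.96, 0.87 and 0.81 below it, and STMN1 and TUBA1A 1.89 and 1.83 above it. Centring on probes well above background gave 6 risen and 7 fallen members, with all 17 called members on the same side of 0 as with loess. The calls of TUBB4B, TUBB3, KRT8, KRT18 and LMNA were lost. This centring differs from median centring only by a single amount per array, so it places the members alike relative to all tested probes.

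**Figure D4:**
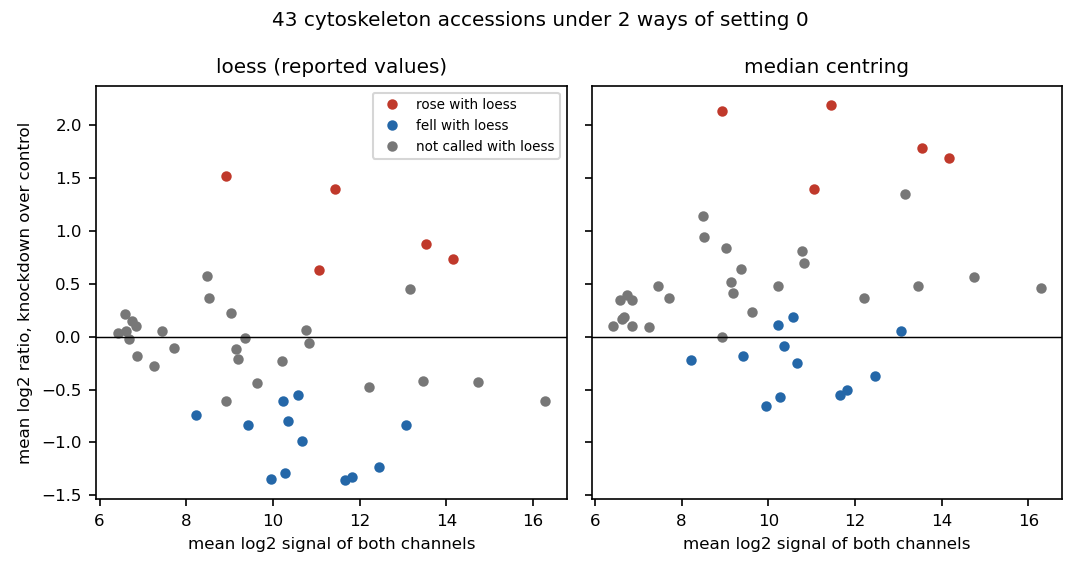
Mean log2 ratio of the 43 accessions on the y axis against the mean log2 signal of both channels, with loess on the left and median centring on the right, coloured by the call made with loess. The points move up under median centring, so that 3 of the 12 fallen messages lie above 0.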

How the data were processed

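Heavy polysome RNA of 3 biological replicates was measured on 3 2-colour Agilent arrays. Per the file headers, Agilent Feature Extraction 10.9.1.1 read the intensity of each spot; limma, with no version, also appears in the submitters' processing notes. The deposited tables hold median spot and local background intensity and, as log10, the ratio of processed Cy5 to Cy3 signals. The authors' deposited series table holds log2 ratios of unstated scale, centring and direction, which followed loess-normalized ratios without background correction at Pearson's r of 0.995, 0.994 and 0.994 across probes, with column medians of 0, 0.01 and 0.01; its direction is taken as knockdown over control from these positive correlations. Both served as alternatives.

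From the median intensities, background was corrected with normexp (offset 50, all spots) and arrays were normalized by loess with control spots at weight 0, in R 4.3.3 with limma 3.58.1. Flagged outlier spots (142 to 150 per array) were left out; none was a member's brightest probe and no probe spot was saturated. A tested probe had to be well above background in Cy3 on all 3 arrays or in Cy5 on all 3. The mean log2 ratio was tested against 0 with lmFit and eBayes, 2-sided, with Benjamini-Hochberg adjustment over all 18143 tested probes and a threshold of 0.05; intervals are at 95%. The offset pulls ratios of dim probes toward 0, and 3 arrays limit the precision. The fit was also run on simulated data, with changes planted among independent normal noise. That simulation held no effect of dye, slide or brightness, so it does not bear on these.

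The members, families and lists were chosen with earlier results of these data known. Named with a value on each array were the called members (the 7 largest rises and falls at most) and the brightest of each family, except 1 member that is counted but not reported here; values of other members were added after they were seen. The plan printed gene symbols only from a given table; no such table was used here, and the symbols come from knowledge of RefSeq and were not checked against one. A further list of cytoskeleton genes, the other cell type markers and all sequences were not analysed here for the same reason. Alternatives changed background correction, normalization, filter, flags, variance model, array weights, source of values, probe per accession and replicates.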

Additional observations from a re-analysis of the deposited data

How the results depend on the processing

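The 43 members had 709 values under alternatives. Of these 581 kept their sign and their side of the threshold, 55 kept the sign but no longer passed, 22 passed where the main setting did not, and 51 had the opposite sign. Part of the kept signs was fixed in advance. With no filter, the filter on both channels, flagged spots kept or an intensity trend, members' log2 ratios were those of the main setting. Only their p could change there. Leaving out a replicate could not turn a member whose sign was the same on every array. All 17 called members kept their sign in each alternative except LMNA, TUBB3 and TUBB4B with median centring and CAPZA1 with its next brightest probe (-0.36). STMN1 and TMSB10 lost their calls only without replicate 2, and TPM4, TAGLN2, CFL1, ARPC3, ARPC5 and ACTR3 only there and with median centring, whereas LMNA kept its call in 8 of 17 alternatives.

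Median centring gave 0 fallen members and a member median of 0.36, with 3561 risen and 59 fallen probes over the array, and turned the sign of ACTB (0.46), ACTG1 (0.56), TPM1 (0.24), ACTN4 (0.10), MYH10 (0.096), PFN1 (0.42), EZR (0.64), TLN1 (0.18), ARPC1A (0.70), CAPZA2 (0.52), TUBB (0.48), TUBB4B (0.050), TUBB6 (0.37), TUBB3 (0.19), VIM (0.48), LMNA (0.11), LMNB1 (0.36) and the RHA probes A_23_P97749 (0.26) and A_24_P36847 (0.068). Centring on probes well above background gave 7 fallen members, a member median of 0.043 and 3124 risen probes, and turned ACTB (0.14), ACTG1 (0.24), FLNA (-0.22), PFN1 (0.096), EZR (0.32), ARPC1A (0.38), ARPC4 (-0.15), CAPZA2 (0.20), TUBB (0.16), TUBB6 (0.044), VIM (0.16) and LMNB1 (0.043). The next brightest probe gave 0 risen and 7 fallen members and a median of -0.30 over 24 accessions, and turned ACTG1 (0.81), MSN (0.019), TLN1 (0.13), ARPC4 (-0.16), CAPZA1 (-0.36), CAPZA2 (0.018) and TUBA1C (-0.31). CAPZA1 was the only risen member with a next brightest probe. The mean of an accession's probes gave a median of -0.15 and turned ACTG1 (0.38), TLN1 (0.053) and ARPC4 (-0.051). No background correction turned ARPC4 (-0.0079). The authors' series values gave a median of -0.22 and turned EZR (0.027) and ARPC4 (-0.0067). Agilent's processed ratio gave 4 risen and 9 fallen members, a median of -0.27 and 2809 risen probes, and turned EZR (0.019). TUBA1B, CAPZA1, TUBB4B, TUBB3 and LMNA lost their calls with it, and RDX was called higher. The filter on both channels gave a median of -0.22. No filter gave 3 risen members and 1066 risen and 997 fallen probes, an offset of 0 gave 2891 risen probes, and an intensity trend gave 3001 and 2523.

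With 1 replicate left out, risen members numbered 0 to 5 and fallen ones 0 to 12, beside 0 to 1502 risen and 0 to 1419 fallen probes, each 0 without replicate 2, and member medians from -0.25 to -0.14. It turned MYH9 (-0.052 to 0.11), EZR (-0.23 to 0.19), LMNB1 (-0.30 to 0.058), ARPC4 (-0.014 to 0.099), CAPZA2 (-0.30 to 0.0047), ARPC1A (-0.32 to 0.22) and TMSB4X (-0.028 to 0.16). The cause of these differences was not tested. No further pairing was possible: control and knockdown RNA share an array, so each ratio is paired already, and there is 1 group of arrays. Signals near background in the control channel limit FLNA, RDX and ARPC4.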
